A study of Mus musculus with 9 samples.

Results

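Interleukin-24 (Il24), the receptor subunits that its family of cytokines uses and the STAT3 arm below them were followed across the basal epidermis of healing mouse tail skin. The genes were chosen by name: Il24, the receptor genes Il20ra, Il20rb, Il22ra1 and Il10rb, the transcription factor gene Stat3 and the feedback inhibitor gene Socs3. Of these 7 genes, 6 had at least 1 probe set that the platform annotation pairs with that gene alone, out of 17097 such genes in all, and Il22ra1 was not analysed here. The 6 genes had 8 probe sets, and a gene was read from whichever of its probe sets was brightest on average. Il24 and Il20rb were picked with their changes in these data already known. Their values are therefore a description with no p-value, and nothing is read from counts of calls that include them.

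The 9 arrays came from CD1 mice, 4 days after a 3 mm punch wound, with 3 arrays in each of 3 groups. Leading edge (LE) cells were cut with a 4 mm punch around the wound and gated as positive for ITGA5 (α5 integrin). Proliferative hub cells came from the ring taken with a 6 mm punch and were gated as ITGA5 negative, whereas control cells came from tail skin far from the wound in the same kind of animal and their labels name no ITGA5 gate. All groups shared the sort for α6 integrin, which marks basal cells, and against CD34, which marks hair follicle bulge cells, and each sample held 300 cells. The methods state a pool of 5 mice for duplicate samples, whereas these groups hold 3 samples each. Region, wounding and the ITGA5 gate therefore cannot be told apart. The labels speak of biological replicates and the methods of technical ones, so a p-value here reflects only how far these samples scatter, and that scatter may be technical.

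IL-24 is a member of the IL-20 subfamily of IL-10-related cytokines. It binds a receptor built from IL-20Rβ together with either IL-20Rα or IL-22Rα1, whereas IL-10Rβ is the shared chain of the receptors for IL-10, IL-22 and other relatives. In keratinocytes these receptors act through JAK kinases that phosphorylate STAT3, and SOCS3, which STAT3 induces, blocks the kinases and so closes a feedback loop. STAT3 is switched on by phosphorylation, which arrays do not measure.

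In GRCm38.p6 Il24 lies at chr1:130882074-130887411, Il20ra at chr10:19711673-19760053, Il20rb at chr9:100457719-100486473, Il22ra1 at chr4:135728159-135755383 and Il10rb at chr16:91406157-91425834. Stat3 at chr11:100886806-100939594 and Socs3 at chr11:117966079-117970336 share a chromosome. These are whole gene spans, and the exons that the probe sets cover were not looked up.

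Values are log2 signals after RMA normalization, so a difference of 1 is a 2-fold change. Signals of 23 nonspecific background probe sets ran up to 8.61, with a median of 4.66 and a 95th percentile of 7.40, and levels inside that range are poorly measured. Median signals per array lay between 6.47 and 6.53. The basal keratinocyte markers, 7 of 7 measured, had a summed log2 signal of 15.42 to 15.55 on all arrays. The sort genes followed the labels, since Itga5 read 9.06 to 9.17 at the LE, 6.46 to 7.47 in the hub and 6.23 to 6.50 in control skin, and Cd34 stayed between 4.50 and 4.95.

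Several arrays stood apart in markers of other cells. The summed signal of 18 myeloid markers was 11.04, 10.28 and 10.81 in LE replicates 1 to 3, against 10.24 to 10.26 in the hub and 10.19 to 10.22 in control skin. LE replicates 1 and 3 were thus the high arrays, with Lyz2 at 8.25 and 7.12 there and 5.36 in LE replicate 2, while Ptprc, the common leukocyte gene, was at 4.06 to 4.81 on all arrays. The 6 Langerhans cell markers summed to 10.55 in LE replicate 3, to 9.50 and 9.61 in LE replicates 1 and 2, and to 9.30 to 9.35 elsewhere. Cd207, which defines these cells, read only 5.02 to 5.44. The 8 measured T cell markers of 10 summed to 9.05 to 9.26 on all arrays. The 10 endothelial markers summed to 11.21 in LE replicate 1, 10.43 and 10.38 in hub replicates 2 and 3, and 9.53 to 9.89 elsewhere. The 5 melanocyte markers summed to 9.46 in LE replicate 3 and to 8.31 to 8.89 elsewhere, with Tyrp1 at 7.77 there and 5.05 to 5.29 elsewhere.

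Il24 was low in control skin, high in the hub and higher still at the LE. The 3 control arrays read 6.23, 6.48 and 6.18 (replicates 1 to 3), the 3 hub arrays read 9.15, 10.40 and 9.86, and the 3 LE arrays read 11.88, 11.64 and 11.57. Every hub array lay above every control array and below every LE array. The control values were within the background range and below its 95th percentile, so the folds against control rest on a poorly measured level.

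**Figure D1:**
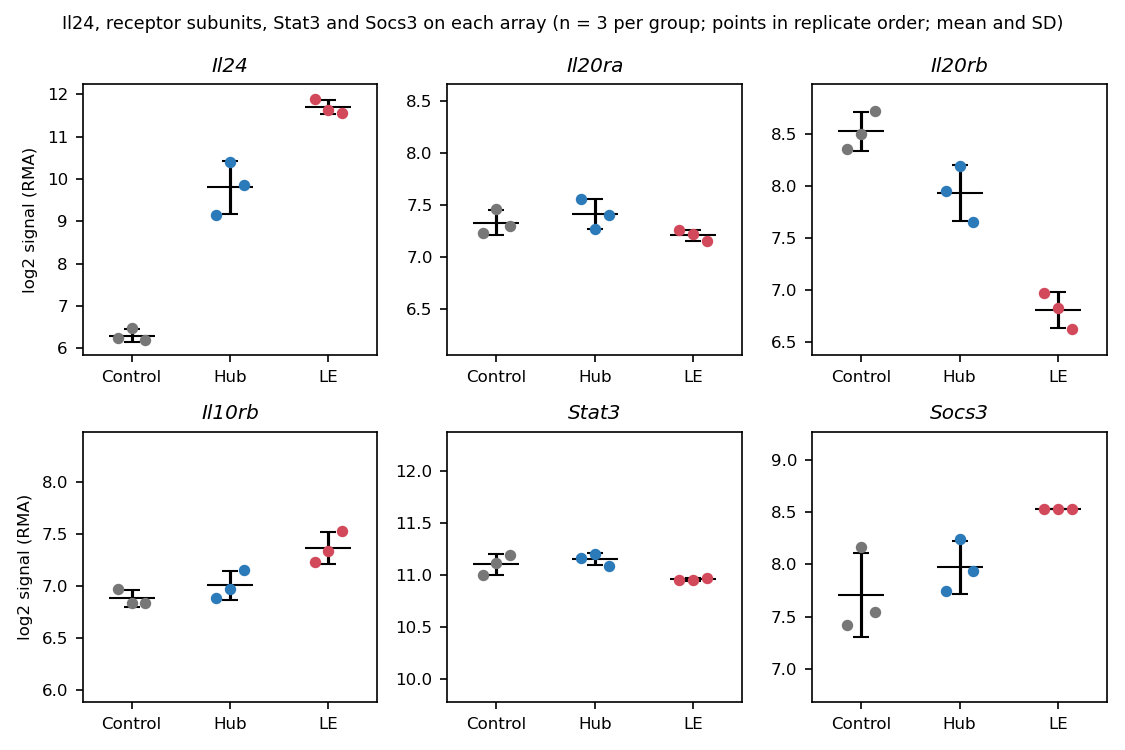
Log2 signal (vertical axes, RMA) of Il24, Il20ra, Il20rb, Il10rb, Stat3 and Socs3 on each of the 9 arrays by group (control, hub, LE), with points in replicate order and the group mean and SD (n = 3). The axis of Il24 spans more units than those of the other genes. Il24 stepped up from 6.30 to 9.81 to 11.69, Il20rb stepped down from 8.52 to 7.93 to 6.81, and the LE arrays of Socs3 lay between 8.53 and 8.54.

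The group means of Il24 were 6.30 ± 0.16 for control skin, 9.81 ± 0.63 for the hub and 11.69 ± 0.17 for the LE (SD, n = 3). Hub cells thus exceeded control by 3.51 ± 0.26 (SE from limma; 11.4-fold), and LE cells exceeded the hub by 1.89 ± 0.26 (3.70-fold). The whole difference between LE and control was 5.40 ± 0.26 (42.1-fold). Ranked from the highest of 17097 genes, Il24 stood at 2 between LE and control, at 3 between hub and control and at 41 between LE and hub. The SD of the hub was the widest of the groups, and leaving out each array in turn moved the LE difference from hub between 1.56 and 2.19.

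LE replicate 2, whose myeloid sum was close to that of the hub, had an Il24 signal of 11.64, and with this array alone for the LE the differences of Il24 were 1.83 against hub and 5.34 against control, a setting chosen after seeing the data. Some myeloid and Langerhans cell markers stayed raised in that array, with Cd14 at 6.64, Cxcr2 at 6.40 and H2-Ab1 at 8.02. Hub and control arrays read at most 6.21, 5.90 and 6.71 for these genes. Lyz2 (5.36) and Tyrobp (5.60) lay within their hub range in LE replicate 2. The differences of Il24 given here rest on 1 array, and the part of other cell types in the Il24 values was not tested.

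In the hub, the spread of Il24 ran with that of Itga5. Hub replicate 2 was the highest hub array for Il24 (10.40), for Itga5 (7.47) and for Socs3 (8.25). Hub replicate 1 was the lowest for all 3 genes, at 9.15, 6.46 and 7.74. Il20rb did not follow this order, since its highest hub value was also in replicate 2 (8.19) but its lowest was in replicate 3 (7.65). With 3 arrays no test of these orders was possible. The endothelial marker sum also had this order over the hub arrays (9.86, 10.43 and 10.38), with Cdh5 at 6.57, 8.39 and 8.42. The parts of the gate and of endothelial cells in this spread were not tested.

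**Figure D2:**
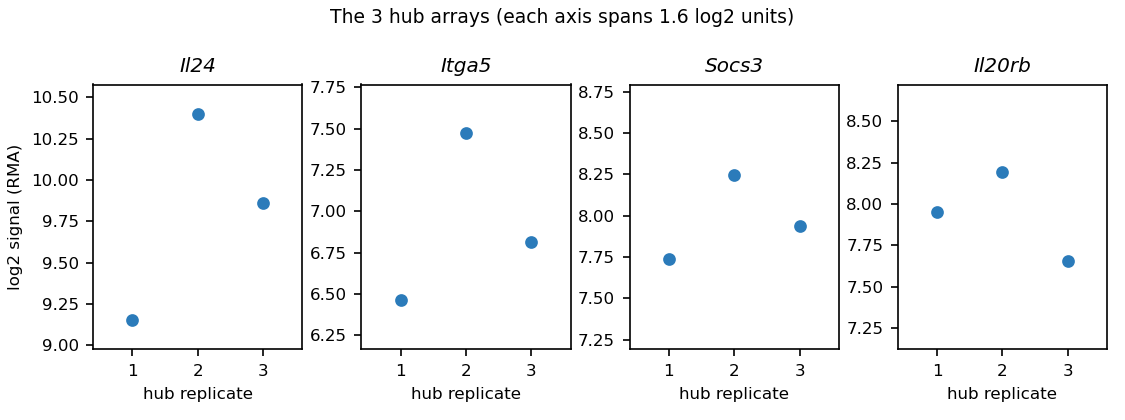
Log2 signal (vertical axes, RMA) of Il24, Itga5, Socs3 and Il20rb on hub replicates 1, 2 and 3 (horizontal axes), 1 point per array. Il24, Itga5 and Socs3 were lowest in replicate 1 (9.15, 6.46 and 7.74) and highest in replicate 2 (10.40, 7.47 and 8.25).

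The genes whose pattern over the 9 arrays was most like that of Il24 were Igsf3 (Pearson r = 0.999), Ptprj (0.997), Lgals1 (0.996), Csta1 (0.995) and Sh2d5 (0.995), out of 2209 other genes that spanned at least 1 log2 unit. The arrays fall into 3 groups, so these correlations mostly restate the order of the group means and are given as a description. The genes differed in size of change. Igsf3, a gene of the immunoglobulin superfamily, went from 10.08 ± 0.03 in control skin to 10.80 ± 0.13 in the hub and 11.16 ± 0.02 at the LE, whereas Sh2d5 went from 6.16 ± 0.18 to 9.62 ± 0.36 and 11.23 ± 0.07 (SD, n = 3). Lgals1, which encodes galectin-1, went from 7.91 ± 0.13 to 10.02 ± 0.43 and 11.28 ± 0.27.

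The receptor subunits differed in their course. Il20rb, which encodes the β chain needed by both forms of the IL-24 receptor, ran in the opposite order. Its control arrays read 8.35, 8.49 and 8.72, its hub arrays 7.95, 8.19 and 7.65, and its LE arrays 6.96, 6.83 and 6.62 (replicates 1 to 3). The 3 groups did not overlap, and all values but the highest control value lay within the background range. The means were 8.52 ± 0.18, 7.93 ± 0.27 and 6.81 ± 0.17 (SD, n = 3), with a difference of -0.59 ± 0.15 between hub and control and of -1.13 ± 0.15 between LE and hub (SE from limma). LE cells thus had 3.28-fold less Il20rb signal than control cells, with a difference of -1.72 ± 0.15, which leaving out each array moved between -1.80 and -1.62. In bulk samples, fewer cells that express a gene and less RNA per cell cannot be told apart.

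Il20ra, which encodes the α chain that pairs with IL-20Rβ, was nearly level across the groups. Its arrays read 7.23, 7.46 and 7.30 for control skin, 7.56, 7.27 and 7.41 for the hub and 7.26, 7.22 and 7.16 for the LE. All of these values were within the background range. The LE arrays were all below the hub arrays, although the highest LE value and the lowest hub value were 7.26 and 7.27, and they overlapped the control arrays. The difference between LE and hub was -0.20 ± 0.09 (95% interval -0.41 to 0.0054, limma adjusted p = 0.235), that between LE and control was -0.12 ± 0.09 (-0.33 to 0.087, adjusted p = 0.418) and that between hub and control was 0.08 ± 0.09 (-0.13 to 0.29, adjusted p = 0.737). Together these intervals span -0.41 to 0.29.

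Il10rb, the shared chain, was slightly higher at the LE. Its arrays read 6.97, 6.84 and 6.84 for control skin, 6.89, 6.97 and 7.16 for the hub and 7.23, 7.34 and 7.53 for the LE. The LE arrays lay above all others, and hub and control overlapped. Il10rb rose by 0.48 ± 0.10 from control to LE (1.40-fold, limma adjusted p = 0.00663). Against the hub the difference was 0.36 ± 0.10 (adjusted p = 0.0498), a call lost on leaving out 7 of the 9 arrays in turn (all but LE replicate 1 and hub replicate 3, adjusted p up to 0.160). LE replicate 1, with the highest myeloid sum, had the lowest Il10rb value of the LE arrays. LE replicate 3, with the next highest myeloid sum and the highest Langerhans cell sum, had the highest (7.53). The part of other cell types in the Il10rb values was not tested. A second probe set of Il10rb lay near the background median, with group means of 4.95, 5.01 and 4.97 in control, hub and LE, and its difference of 0.02 ± 0.10 for LE against control did not pass (adjusted p = 0.902). With the mean of both probe sets, the rise against control missed the threshold (0.25, adjusted p = 0.0563).

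For 5 of the 7 genes the RefSeq table held a promoter window, and Il24 and Il10rb were not among them. The 250 bases before the start were searched for TTCNNNGAA, a core that STAT dimers bind, and for TGANTCA, the AP-1 core; both read the same on either strand. The first was in 7.02% and the second in 6.75% of 32851 mouse promoter windows. The nearest 100 bases of Il20rb are shown because this receptor gene differed most between groups, and the whole window held neither core. The stretches of Il20ra and Socs3 are shown because they held 1 match each, in capitals, and both lie inside the annotated span of their gene, since the start in the table is not the outermost one.
Il20rb, GRCm38.p6 chr9:100486474-100486573, minus strand: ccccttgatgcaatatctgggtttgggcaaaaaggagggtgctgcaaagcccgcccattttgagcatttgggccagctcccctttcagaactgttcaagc
Il20ra, GRCm38.p6 chr10:19712413-19712441, plus strand: tctgctgtacTGAGTCAgagctcatcggc
Socs3, GRCm38.p6 chr11:117969502-117969530, minus strand: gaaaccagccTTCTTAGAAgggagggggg

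Il22ra1 also held 1 TGANTCA match and Stat3 held no match to either core. These are matches of letters and describe no binding.

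Stat3 messenger levels were high and changed little. Its arrays read 11.00, 11.12 and 11.20 for control skin, 11.16, 11.21 and 11.09 for the hub and 10.95, 10.95 and 10.98 for the LE. The LE arrays were the lowest, with a difference of -0.19 ± 0.07 from the hub (95% interval -0.36 to -0.03, limma adjusted p = 0.135) and of -0.15 ± 0.07 from control (-0.31 to 0.02, adjusted p = 0.193). Hub and control differed by 0.05 ± 0.07 (-0.11 to 0.21, adjusted p = 0.813). A second, dimmer probe set gave 0.04 ± 0.11 for LE against hub (adjusted p = 0.896).

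Socs3 was highest at the LE and uneven in the other groups. Its LE arrays all read between 8.53 and 8.54, its hub arrays read 7.74, 8.25 and 7.94, and its control arrays read 7.41, 8.17 and 7.54 (replicates 1 to 3). Control replicate 2 stood above the other control arrays, and hub and control overlapped. Socs3 rose by 0.82 ± 0.19 from control to LE (1.77-fold, limma adjusted p = 0.0113), and this call held without each array in turn (0.67 to 1.05). The difference from the hub was 0.56 ± 0.19 (adjusted p = 0.101), which passed the threshold without control replicate 2 (0.56, adjusted p = 0.0203), when only the 6 LE and hub arrays were fitted (adjusted p = 0.0240) or with a replicate block (adjusted p = 0.0483). Hub and control differed by 0.27 ± 0.19 (adjusted p = 0.532). In control replicate 2 the wound keratin gene Krt6b also stood apart, at 11.27 against 6.47 and 7.38 in the other control arrays. Other wound-induced genes differed in direction there. S100a8 (6.39 against 7.85 and 7.81) and S100a9 (7.12 against 8.75 and 9.06) were lowest in that array, and Krt16 narrowly so (12.10 against 12.20 and 12.13). Krt6a was not (12.65 against 12.44 and 12.68), and Il24 was highest there (6.48 against 6.23 and 6.18). What set this array apart was not tested. With LE replicate 2 alone for the LE, the Socs3 difference from control was 0.82 (adjusted p = 0.168).

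The genes most like Socs3 over the 9 arrays were Limk1, which encodes a kinase of the actin regulator cofilin (Pearson r = 0.967), Smox, which encodes spermine oxidase (0.964), Cttnbp2nl (0.954), Galnt2 (0.954) and Tead4, a TEAD transcription factor gene (0.949). These were again correlations over 3 groups of arrays. Tead4 covered the widest range of the 5, from 6.32 ± 0.55 in control skin to 7.14 ± 0.24 in the hub and 8.47 ± 0.11 at the LE (SD, n = 3).

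**Figure D3:**
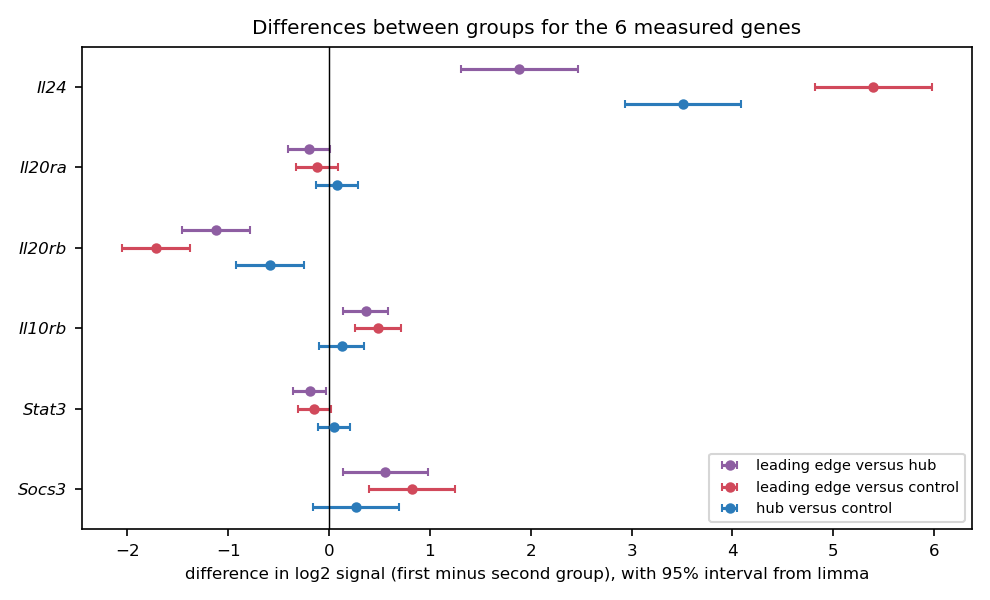
Difference in log2 signal (horizontal axis, first group minus second) for the 6 measured genes in each of the 3 comparisons, with the 95% interval from limma (n = 3 arrays per group). Il24 lay to the right in all comparisons (1.89, 5.40 and 3.51), Il20rb to the left (-1.13, -1.72 and -0.59), and the intervals of Il20ra included 0. Il24 and Il20rb were picked for their change, so their intervals describe spread and test nothing.

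Of the 4 measured genes that were not picked for their change, Il10rb and Socs3 passed limma at an adjusted p under 0.05 between LE and control, where 22.8% of all genes did. Between LE and hub only Il10rb passed, against 10.6% of all genes, and between hub and control 0 of the 4 passed in limma, against 7.28%, with 0 also at an unadjusted p under 0.05. LE and control arrays did not overlap for 3 of the 4 (36.2% of all genes), LE and hub arrays for all 4 (30.0%) and hub and control arrays for 0 (23.8%). Il24 and Il20rb are left out of these counts, since their choice fixed the answer. As a description, their differences exceeded 2-fold between LE and control and between LE and hub, where 4.7% and 1.87% of all genes were called with that minimum, and that of Il24 did between hub and control (1.09%). More than 2-fold in every pairing of arrays by replicate number was seen for Il24 and Il20rb between LE and control (3.01% of all genes), and for Il24 between LE and hub (1.04%) and between hub and control (0.521%). Nothing is read from these shares. The comparisons share arrays, so their values are not independent.

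The other ligands of the family gave weak signals. Of 6 listed, only Il20 and Il10 were measured, and neither passed limma in any comparison (0 calls, with 1 at an unadjusted p under 0.05, Il20 between LE and control). Il20, which encodes a cytokine that uses the same receptors as IL-24, read 6.40, 7.36 and 8.28 in LE replicates 1 to 3, 6.41 to 6.90 in the hub and 6.27 to 6.65 in control skin. LE replicates 2 and 3 lay above every other array and LE replicate 1 did not. LE replicate 3, the highest array for Il20, was also the highest for the Langerhans cell and melanocyte markers, whose part in the Il20 values was not tested. Its difference was 0.91 ± 0.38 between LE and control (adjusted p = 0.122) and 0.74 ± 0.38 between LE and hub (adjusted p = 0.303), and both passed the threshold without LE replicate 1 (adjusted p = 0.00718 and 0.0266). Il10 stayed between 4.48 and 4.87, near the background median.

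Among the 7 other receptor genes of the family, for IL-10, interferons and the soluble IL-22 binding protein, 0 rose and 1 fell at the LE against control, where 11.9% of all genes rose and 10.8% fell. The fall was in Ifngr1, which encodes the ligand-binding chain of the interferon-γ receptor (-0.47 ± 0.09, adjusted p = 0.00612). Ifngr1 also fell against the hub (-0.46 ± 0.09, adjusted p = 0.0139), a call lost without LE replicate 3 (adjusted p = 0.0570). Between hub and control, where 7.28% of all genes passed, 0 of the 7 did in limma, with 2 lower at an unadjusted p under 0.05.

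The kinases and other STAT genes moved in both directions. Of 9 measured of 10, 1 rose and 3 fell at the LE against control, where 11.9% of all genes rose and 10.8% fell, and 1 rose and 2 fell against the hub, where 5.39% rose and 5.23% fell. Jak2 rose (0.42 ± 0.10, adjusted p = 0.0149) and Jak1, the kinase bound to the α chains, fell (-0.34 ± 0.07, adjusted p = 0.00461), as did Stat5b (-0.45 ± 0.11, adjusted p = 0.0179) and Stat5a (-1.04 ± 0.15, adjusted p = 0.000889). The rise of Jak2 was lost without LE replicate 3 or control replicate 2 (adjusted p up to 0.0598), and the fall of Stat5b without LE replicate 1, LE replicate 2 or control replicate 1 (adjusted p up to 0.0626). Of the 2 probe sets of Stat5b (-0.45 and -0.27) 1 was called, and of the 3 of Jak1 (-0.34 to -0.10) 2 were called. Stat5a read 9.10, 9.50 and 9.16 at the LE, 9.71, 10.09 and 9.74 in the hub and 10.25, 10.09 and 10.52 in control skin. Its LE arrays lay below all others. Against the hub, Jak2 rose by 0.62 ± 0.10 (adjusted p = 0.00421), although only 1 of its 2 probe sets was called (0.21 and 0.62). The falls of Jak1 and Stat5a against the hub did not hold throughout. There 1 of the 3 probe sets of Jak1 was called (-0.29 to -0.05) and 1 of the 2 of Stat5a (-0.59 and -0.45). Jak1 lost its call when LE replicate 2 or any 1 hub array was left out (-0.29 ± 0.07, adjusted p = 0.0236, at most 0.0936), and Stat5a when LE replicate 1, LE replicate 3 or any 1 hub array was (-0.59 ± 0.15, adjusted p = 0.0347, at most 0.119). Between hub and control, where 7.28% of all genes passed, 0 of the 9 did in limma, with 3 lower at an unadjusted p under 0.05.

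Other cytokines that act through STAT3 use the shared receptor chain gp130, encoded by Il6st. Of 10 genes measured of 13, 2 rose and 4 fell at the LE against control, where 11.9% of all genes rose and 10.8% fell. Clcf1, which encodes cardiotrophin-like cytokine factor, read 9.72, 9.73 and 9.35 at the LE, 8.46, 8.24 and 8.43 in the hub and 7.51, 7.44 and 7.51 in control skin. The groups did not overlap, and Clcf1 rose by 2.12 ± 0.11 from control to LE (4.34-fold, adjusted p = 1.62e-06), by 1.23 ± 0.11 from hub to LE (adjusted p = 0.000163) and by 0.89 ± 0.11 from control to hub (adjusted p = 0.00175). Cntfr, a receptor gene for the same cytokine group, rose as well at the LE against control (1.03 ± 0.24, adjusted p = 0.0109). Its difference between LE and hub was 0.18 ± 0.24 (adjusted p = 0.755), and that between hub and control was 0.85 ± 0.24 (adjusted p = 0.0609). Il6st fell from 11.30 ± 0.13 in control skin to 10.28 ± 0.04 at the LE (SD, n = 3), a difference of -1.02 ± 0.08 (adjusted p = 1.98e-05). Against the hub Il6st fell by 0.80 ± 0.08 (adjusted p = 0.000313). Its 3 probe sets ran from -1.02 to -0.30 against control and from -0.80 to -0.39 against the hub, each time with 2 called. The ligand gene Ctf1 fell too (-1.24 ± 0.19, adjusted p = 0.00115). In the hub 1 of the 10 rose and 2 fell against control, where 4.16% of all genes rose and 3.12% fell. Lifr (-0.70 ± 0.13, adjusted p = 0.0133) and Il6ra (-0.44 ± 0.07, adjusted p = 0.00528) were these falls. Both also fell at the LE against control, Lifr by 0.97 ± 0.13 (adjusted p = 0.000622) and Il6ra by 0.99 ± 0.07 (adjusted p = 8.9e-06). Il6ra was also lower at the LE than in the hub (-0.56 ± 0.07, adjusted p = 0.000918).

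Among 15 other genes for SOCS proteins, PIAS proteins and phosphatases that restrain JAK and STAT signalling, 1 rose and 2 fell at the LE against control, or 3 of 15 where 22.8% of all genes passed, so the list did not stand out by its count. Cish, a SOCS family gene that STAT5 induces, changed in the direction opposite to Socs3. It read 8.11, 7.97 and 7.96 at the LE, 8.66, 8.63 and 8.59 in the hub and 10.08, 10.13 and 9.61 in control skin, and the groups did not overlap. Cish fell by 1.93 ± 0.13 from control to LE (adjusted p = 6.38e-06) and by 1.31 ± 0.13 from control to hub (adjusted p = 0.000498). The further fall from hub to LE (-0.61 ± 0.13, adjusted p = 0.0130) was lost without LE replicate 2 or 3 (adjusted p up to 0.0525). Socs6 rose at the LE against control (0.41 ± 0.07, adjusted p = 0.00267) and hub (0.44 ± 0.07, adjusted p = 0.00424), and Socs7 fell against control (-0.54 ± 0.09, adjusted p = 0.00267). The probe sets of Socs7 ran from -0.54 to 0.03. Those of Socs6 ran from 0.06 to 0.41 against control, with 2 of 3 called, and from 0.09 to 0.44 against the hub, with 1 called. Cish was the call in this list between hub and control, where 7.28% of all genes passed.

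Genes known as targets of STAT3 rose more often than they fell at the LE. Of 20 measured, 10 rose and 4 fell against control, with a median of 0.28 beside 0.02 for all genes, where 11.9% of all genes rose and 10.8% fell. With LE replicate 2 alone for the LE, 8 of the 20 were called. Against the hub, 6 rose and 1 fell, with a median of 0.16 beside -0.01, where 5.39% of all genes rose and 5.23% fell. This list was written with changes of some of its genes known, so the counts describe it and do not test it. Timp1, which encodes an inhibitor of metalloproteinases, rose by 4.04 ± 0.25 against control (adjusted p = 4.62e-06). Il4ra, which encodes the IL-4 receptor α chain, read 9.77, 9.60 and 9.65 at the LE, 8.28, 8.62 and 8.81 in the hub and 7.79, 8.005 and 7.79 in control skin. It rose by 1.81 ± 0.13 from control to LE (3.50-fold, adjusted p = 1.07e-05), by 1.10 ± 0.13 from hub to LE (adjusted p = 0.000678) and by 0.71 ± 0.13 from control to hub (adjusted p = 0.0111). Vegfa rose by 1.44 ± 0.15 against control (adjusted p = 0.000101) and by 1.23 ± 0.15 against the hub (adjusted p = 0.000766). Tnfrsf12a rose by 0.63 ± 0.07 against the hub (adjusted p = 0.000687). Tnfrsf12a was lowest in the hub, where it fell against control (-0.38 ± 0.07, adjusted p = 0.0143). Its rise at the LE against control was 0.25 ± 0.07 (adjusted p = 0.0391). Myc went the other way (-0.95 ± 0.07 against control, adjusted p = 1.42e-05) and was the fall against the hub (-0.56 ± 0.07, adjusted p = 0.000989). The other falls against control were in Icam1 (-0.82 ± 0.09, adjusted p = 0.000155), Junb (-0.485 ± 0.09, adjusted p = 0.00296) and Cebpd (-0.36 ± 0.11, adjusted p = 0.0464).

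In the hub, 4 of these 20 targets rose and 5 fell against control, where 4.16% of all genes rose and 3.12% fell. Pim1, which encodes a kinase (-0.70 ± 0.12, adjusted p = 0.00881), and Junb, an AP-1 gene (-0.57 ± 0.09, adjusted p = 0.00471), were among the falls. Lcn2, which encodes lipocalin-2, was among the rises (0.97 ± 0.23, adjusted p = 0.0359), and lost its call on leaving out 6 of the 9 arrays (adjusted p up to 0.114).

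Keratinocyte genes known to be induced by the IL-20 subfamily or IL-22 were measured for 12 of 14. Of these, 7 rose and 1 fell at the LE against control (median 0.77 beside 0.02 for all genes), where 11.9% of all genes rose and 10.8% fell. In the hub against control 6 rose and 1 fell (median 0.65, beside 0.03 for all genes), where 4.16% rose and 3.12% fell. This list too was chosen with earlier results of these data known, so its counts describe it and do not test it. The alarmin gene S100a8 read 10.05, 10.70 and 10.38 at the LE, 9.86 on each hub array and 7.85, 6.39 and 7.81 in control skin. It rose by 3.02 ± 0.34 at the LE (adjusted p = 0.000182) and by 2.51 ± 0.34 in the hub (adjusted p = 0.00264). The fall at the LE was in Serpinb3a (-1.03 ± 0.15, adjusted p = 0.000898), a protease inhibitor gene. S100a9 rose by 1.99 ± 0.42 at the LE (adjusted p = 0.00707). Krt6b rose by 4.43 ± 0.96 at the LE (adjusted p = 0.00854) and by 4.31 ± 0.96 in the hub (adjusted p = 0.0266), with the hub call lost without any 1 hub array or without control replicate 1 or 3 (adjusted p up to 0.0792). Without control replicate 2, Krt6b differed by 5.88 at the LE and 5.75 in the hub, and S100a9 by 1.40 at the LE. Without control replicate 1, Krt6b differed by 3.48 and 3.36.

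Myeloid cells also express several of these genes. S100a8 and S100a9 were highest in LE replicate 2 (10.70 and 10.51), whose myeloid sum was near that of the hub. The cytokine gene Il1b, also among the 7 rises and named here after its values were seen, instead read 8.40 and 8.05 in LE replicates 1 and 3, where the myeloid sum was high, and 6.91 in LE replicate 2, inside its control range of 6.69 to 6.92. Its rise (0.96 ± 0.30, adjusted p = 0.0474) was lost without any 1 array other than LE replicate 2, and its difference was 0.09 with LE replicate 2 alone for the LE. Cxcl5, which was not called, read 5.43 in LE replicate 1 and 4.18 to 4.35 elsewhere. With LE replicate 2 alone, 4 of the 12 genes were called against control. The part of myeloid cells in these values was not tested.

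Between LE and hub, 1 of these 12 genes rose and 1 fell, where 5.39% of all genes rose and 5.23% fell, so the count lies near that of all genes. Mmp3, which encodes the protease stromelysin-1, rose by 1.95 ± 0.15 (adjusted p = 6.05e-05), whereas Serpinb3a changed by -1.93 ± 0.15 (adjusted p = 6.9e-05). Mmp3 was lowest in the hub, where it fell against control (-0.92 ± 0.15, adjusted p = 0.00627), while at the LE it rose against control (1.03 ± 0.15, adjusted p = 0.000841).

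Of 11 differentiation genes known to be repressed by these cytokines, 1 rose and 5 fell at the LE against control (median -0.64 beside 0.02 for all genes), where 11.9% of all genes rose and 10.8% fell. Against the hub 0 rose in limma, with 1 at an unadjusted p under 0.05, and 6 fell (median -1.22 beside -0.01), where 5.39% of all genes rose and 5.23% fell. These counts also describe a list chosen with earlier results known and do not test it. The rise against control was in Ivl, which encodes involucrin and is named here after its value was seen (0.57 ± 0.14, adjusted p = 0.0161). Krt10, a keratin of suprabasal cells, read 11.92, 10.96 and 10.90 at the LE, 12.75, 12.75 and 12.70 in the hub and 12.73, 12.71 and 12.86 in control skin. It fell by 1.51 ± 0.22 against control (adjusted p = 0.00101) and by 1.47 ± 0.22 against the hub (adjusted p = 0.00280). The desmosomal cadherin gene Dsg1a fell by 1.94 ± 0.14 against control (adjusted p = 9.29e-06), Krt1 by 1.33 ± 0.32 (adjusted p = 0.0134) and Casp14, which encodes a caspase of the cornified layer, by 1.92 ± 0.36 (adjusted p = 0.00372). Dsg1a (-1.79 ± 0.14, adjusted p = 5.7e-05) and Krt1 (-1.73 ± 0.32, adjusted p = 0.00724) also fell against the hub, as did Casp14 (-1.55 ± 0.36, adjusted p = 0.0230), whose call was lost on leaving out any 1 LE array or hub replicate 1 or 2 (adjusted p up to 0.0766). Hub and control, where 7.28% of all genes passed, had 0 calls among the 11 genes in limma, with a median of 0.04 and 1 higher at an unadjusted p under 0.05, and Dsc1 (0.81 ± 0.23, adjusted p = 0.0684) had the largest difference.

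**Figure D4:**
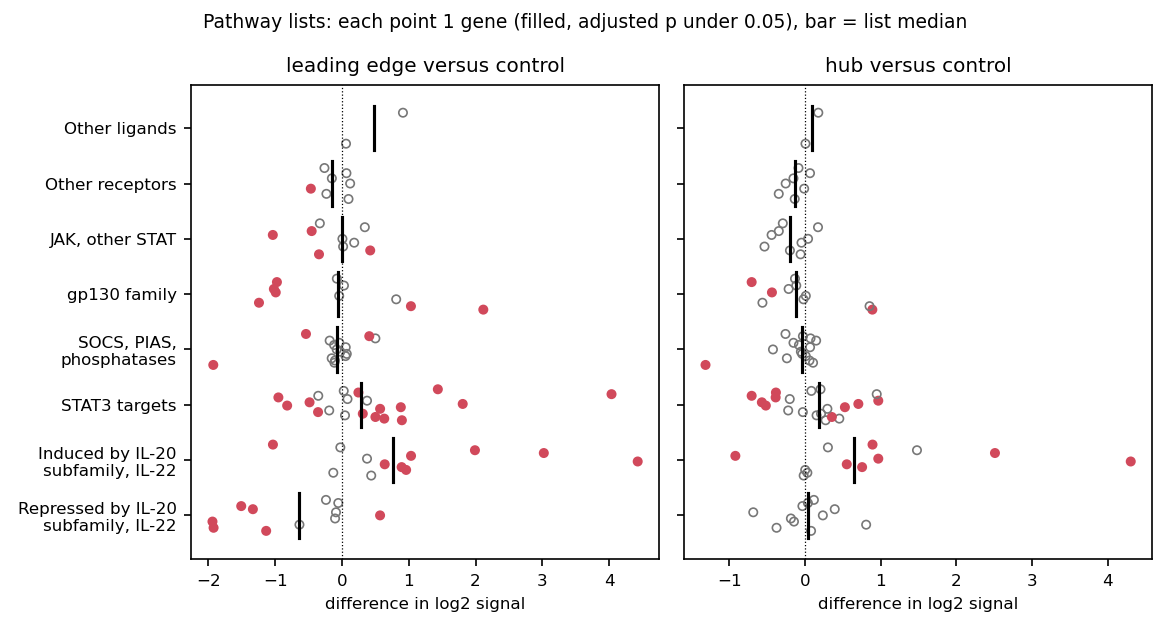
Difference in log2 signal (horizontal axes) of each measured gene in 8 pathway lists for LE against control and hub against control, with filled points for an adjusted p under 0.05 in limma and a bar at each list's median. The list of repressed genes had medians of -0.64 at the LE and 0.04 in the hub, and the list of induced genes had medians of 0.77 and 0.65.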

How the data were processed

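Basal cells from mouse tail epidermis were profiled with Affymetrix PM strip arrays for the mouse, each sample on its own array. The deposited values are log2 signals that the authors made with RMA (background correction, quantile normalization and summary of each probe set; version not given in the sources used here), so total RNA cannot be compared between groups and small signals are compressed. Precision is limited by the number of arrays. Groups came from the deposited labels. Of 45141 probe sets, 28898 had 1 gene symbol in the platform annotation, and the brightest probe set stood for each of 17097 genes. Group means over all 9 arrays were fitted with limma 3.58.1 (R 4.3.3, lmFit and eBayes), with two-sided tests and Benjamini-Hochberg adjustment over all genes, and an adjusted p under 0.05 was called. The test was checked on simulated data. The methods of the study used fold thresholds without a test. Arrays of a group correlated at 0.988 to 0.995, and 0 pairs were identical. The genes and lists were chosen with earlier results of these data known.

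All probe sets of the 7 genes were taken, and up to 4 genes of each other list per comparison, those with the largest called differences without overlap, or the 2 largest differences where none was called, were named, with the 5 genes most like Il24 and Socs3 and the sort genes Itga5, Itga6 and Cd34. Itga6 averaged 12.27, 11.80 and 11.58 in LE, hub and control. Marker lists of fibroblasts and melanocytes were also measured. Promoter windows came from RefSeq (GRCm38.p6). The alternatives tried were array weights, a replicate block, median centring, a mean-variance trend, a second quantile normalization, dropping dim genes (mean above 5.66, 13473 genes left), averaging a gene's probe sets, testing every probe set, the 6 arrays compared, a 2-fold minimum, the study's rule (over 2-fold in each same-numbered pair, as read here) and leaving out each array. Leaving out LE replicates 1 and 3 together was added after seeing the data.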

Additional observations from a re-analysis of the deposited data

How the results depend on the processing

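No called difference of Il10rb or Socs3, and no difference of Il24 or Il20rb, changed sign under any alternative. The differences of Il24 moved by less than the spread between replicates under all of them, with ranges over the removal of each array of 1.56 to 2.19 (LE against hub), 5.30 to 5.49 (LE against control) and 3.21 to 3.84 (hub against control). Same-numbered arrays did not deviate together (correlations over genes of -0.178 to 0.0815), so the numbers were not taken as pairs. With a replicate block Il10rb lost its call against the hub (0.36, adjusted p = 0.0624) and Socs3 gained one (0.56, adjusted p = 0.0483).

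The remaining values are counts of called genes. Those over the 6 genes include Il24 and Il20rb, which were picked for their change, and are a description. For LE against hub, the 3 called of the 6 genes became 1 with the fold rule in each pair and 1 without LE replicates 1 and 3 together (2 to 3 with each array removed). The other receptors (1) became 2 with the replicate block, array weights, a second quantile normalization, median centring, the dim filter or the 6 arrays, and 0 with the 2-fold minimum, the fold rule or both LE arrays removed (0 to 2). JAK and STAT genes (3) became 1 with the block or mean of probe sets and 0 with the fold minimum, fold rule or both LE arrays removed (1 to 4). The gp130 list (3) became 1 and 0 with the fold minimum and fold rule (3 to 4). The SOCS list (2) became 4 with array weights, 1 with the mean of probe sets and 0 with the fold minimum, fold rule or both LE arrays removed (1 to 3). STAT3 targets (7) became 3 and 2 with the fold minimum and rule (6 to 9), and repressed genes (6) became 3 with the rule (5 to 6). Ligands had 0 to 1 and induced genes 2 to 3 with each array removed.

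For LE against control, the 4 called genes became 2 with the fold minimum, 2 with the fold rule and 2 with both LE arrays removed (4 to 4 with each array removed). In the same order of settings, the other receptors (1) became 0, 0 and 0 (1 to 3), JAK and STAT genes (4) became 1, 0 and 1 (3 to 5), and STAT3 targets (14) became 3, 3 and 8 (11 to 12). Induced genes (8) became 5, 3 and 4 (7 to 8). The SOCS list (3) became 1 with the fold minimum and 1 with the rule (3 to 4), the gp130 list (6) became 1 (6 to 7) and repressed genes (6) became 2 (5 to 6) with the rule, and ligands (0) became 1 with both LE arrays removed (0 to 1).

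For hub against control, the 2 called genes became 1 with the replicate block, a second quantile normalization, median centring, all probe sets, the 6 arrays, the fold minimum, the fold rule or both LE arrays removed (1 to 2 with each array removed). The move came from Il20rb, which was picked for its change, so nothing is read from it. With the fold minimum and the rule, the gp130 list (3) became 0 and 0 (3 to 4), STAT3 targets (9) 0 and 0 (7 to 9), and induced genes (7) 2 and 2 (5 to 7). The SOCS list (1) became 2 with the mean of probe sets (1 to 2). Repressed genes (0) became 1 with the block, the trend, the mean of probe sets, the 6 arrays or both LE arrays removed (0 to 1). Other receptors and JAK and STAT genes had 0 to 1, and ligands 0 to 0, with each array removed. Calls with both LE arrays removed rest on 1 LE array, assumed to vary like the other groups.

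Signal over background limits Il20ra, Il20rb, Il10rb, Socs3 and the control level of Il24, all of which had values inside the range of the background probe sets. The same limit holds for list genes. Among them are the control and hub levels of Clcf1 and Timp1, the control levels of Il4ra and S100a8, and all values of Cntfr and Ctf1. Their folds rest on poorly measured levels.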
